A study of Mus musculus with 6 samples.

Results

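The intestinal epithelium holds a resident population of T cells, the intraepithelial lymphocytes, and 10 genes that these cells express were followed in RNA from mouse intestinal crypts. The genes are Cd3e, Cd3g, Cd8a, Gzma, Gzmb, Itgae, Ccl5, Cd7, Cd160 and Xcl1, a list chosen by name, and all 10 were found among the 24736 gene symbols of the deposited table. The samples were crypts of 3 WT mice and of 3 mice carrying a knockout of Mtg16, the gene of a transcriptional co-repressor, with 1 library per mouse. All 6 mice were males of 12 weeks and received no treatment. Crypts were released from the whole length of the gut with cold EDTA, and total RNA was depleted of ribosomal RNA. The labels call the knockout CRISPR-induced whereas the paper describes a line received as a gift, and this was not resolved. The labels call the samples biological triplicates, so the p-values measure the spread between these mice.

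Intraepithelial lymphocytes sit above the basement membrane in direct contact with enterocytes, and in the mouse small intestine many carry CD8 on their surface. They recognise stressed or infected epithelial cells through the T cell receptor and its CD3 chains, kill with granzymes, and are held in the epithelium by the integrin αE chain, which binds E-cadherin. The chemokines they secrete attract other leukocytes.

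Values are TPM, the share of transcripts that a gene makes up, which compare levels per length and add up to an equal total in each library. TPM keeps no read number, so depth is unknown. Differences were tested on log2(TPM + 1), a scale that understates the change of low genes, with limma over the 12268 genes whose mean TPM was at least 1, and all 10 lymphocyte genes passed this filter. Cbfa2t3, which encodes MTG16 and lies on chromosome 8 from 122625136 to 122699332 (mm10), had a TPM of 3.67, 6.69 and 4.52 in WT replicates 1, 2 and 3, while the libraries labelled Mtg16−/− had 4.62, 6.43 and 3.23, in the same order of replicates. The groups overlapped (log2 fold change -0.06, SE 0.27, adjusted p = 0.937 in limma), so its level does not tell the genotypes apart. The directions given here depend on the labels. In Mtg16−/− intestine the paper reports more Lgr5 and Olfm4 and less FABP1 and APOA4 protein. Under the labels, log2 fold changes ran the same way, with 0.83 (Lgr5), 0.64 (Olfm4), -1.99 (Fabp1) and -1.85 (Apoa4). Their groups did not overlap, as for 21.0% of all tested genes, and none was called (adjusted p from 0.225 to 0.309 in limma). The paper stained FABP1 and APOA4 after its RNA-seq of WT and Mtg16−/− intestine had pointed to a loss of mature enterocyte markers. Fabp1 and Apoa4 are thus no independent check of the labels, and an exchange of labels was not tested.

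None of the 10 lymphocyte genes differed between the genotypes at an adjusted p under 0.1 in limma: 0 of 10 were called, where 4 of the 12268 tested genes (0.0326%) were. The count over all genes was 40 without WT replicate 1, 9 without WT replicate 3, 1 without Mtg16−/− replicate 1, 2 without Mtg16−/− replicate 2 and 0 without Mtg16−/− replicate 3, and none of the 10 was called with any of the 6 mice left out. Of the 10, 9 had a lower mean on the log2 scale in the libraries labelled Mtg16−/− and 1, Xcl1, had a higher one. Counts of higher and lower genes are given on this scale throughout. Their median log2 fold change was -0.75, while the median over all tested genes was -0.03, with 53.6% of all genes lower. A single lymphocyte gene, Cd7, had an unadjusted p under 0.05 in limma, a limit passed by 14.6% of all tested genes. The ranges of the groups overlapped for all 10 genes. Over all tested genes the groups did not overlap for 21.0%, of which 11.1% of the tested genes were lower and 9.94% higher in the libraries labelled Mtg16−/−. In bulk RNA, fewer lymphocytes and less of a transcript in each lymphocyte cannot be told apart.

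Cd3e and Cd3g encode the ε and γ chains of CD3, which carry the signal of the T cell receptor into the cell, and both lie on chromosome 9, Cd3e from 44998735 to 45009663 and Cd3g from 44969572 to 44980431. The TPM of Cd3e was 31.0, 9.95 and 19.3 in WT and 19.1, 10.6 and 6.20 in Mtg16−/−. WT replicate 1 was the highest and Mtg16−/− replicate 3 the lowest, and WT replicate 2 lay below Mtg16−/− replicates 1 and 2. The log2 fold change was -0.69 (SE 0.46, adjusted p = 0.493 in limma). Cd3g had a TPM of 43.3, 13.1 and 26.1 in WT and of 19.2, 14.4 and 8.16 in Mtg16−/−. It had the same highest and lowest libraries, with a log2 fold change of -0.86 (SE 0.43, adjusted p = 0.394 in limma).

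Cd8a, the α chain of the CD8 coreceptor that binds class I major histocompatibility molecules, lies on chromosome 6 from 71373427 to 71379171. Its TPM was 23.7, 5.82 and 10.02 in WT and 9.78, 7.73 and 2.55 in Mtg16−/−. The groups overlapped, since WT replicate 2 lay below Mtg16−/− replicates 1 and 2. The log2 fold change was -0.82 (SE 0.54, adjusted p = 0.487 in limma).

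The granzymes are serine proteases that killer lymphocytes release into target cells. Gzma, on chromosome 13 from 113093824 to 113100981, was the most abundant of the 10 genes per length, with a TPM of 275, 83.2 and 161 in WT and of 127, 108 and 43.3 in Mtg16−/−. Gzmb, on chromosome 14 from 56258836 to 56262334, had a TPM of 64.4, 14.9 and 35.1 in WT and of 29.5, 25.03 and 8.20 in Mtg16−/−. For both genes WT replicate 2 lay below 2 of the 3 libraries labelled Mtg16−/−. The log2 fold changes were -0.86 for Gzma (SE 0.50, adjusted p = 0.439 in limma) and -0.79 for Gzmb (SE 0.58, adjusted p = 0.533 in limma).

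Itgae encodes the integrin αE chain, known as CD103, and lies on chromosome 11 from 73090505 to 73147449. Its TPM was 20.4, 5.34 and 10.3 in WT and 10.5, 7.28 and 4.07 in Mtg16−/−. Mtg16−/− replicate 1 was above WT replicate 3, and the log2 fold change was -0.55 (SE 0.45, adjusted p = 0.574 in limma).

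Both chemokine genes overlapped between the groups. Ccl5, which encodes a chemokine secreted by T cells and lies on chromosome 11 from 83525778 to 83530518, had a TPM of 213, 53.7 and 130 in WT and of 125, 78.8 and 33.5 in Mtg16−/−. Its log2 fold change was -0.71 (SE 0.57, adjusted p = 0.567 in limma). Xcl1, on chromosome 1 from 164931644 to 164935522, encodes lymphotactin, which attracts dendritic cells that bear XCR1. It had a TPM of 3.98, 1.64 and 2.41 in WT and of 2.86, 3.87 and 3.70 in Mtg16−/−. WT replicate 1 was the highest of the 6 and the other WT libraries were the lowest, so the groups overlapped through 1 library. The log2 fold change was 0.33 (SE 0.26, adjusted p = 0.566 in limma).

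Cd7 encodes an immunoglobulin-like receptor of T and natural killer cells and lies on chromosome 11 from 121036747 to 121039478. Its TPM was 72.8, 18.9 and 41.9 in WT and 25.5, 16.7 and 6.56 in Mtg16−/−. WT replicates 1 and 3 were above all libraries labelled Mtg16−/−, and WT replicate 2 was below Mtg16−/− replicate 1. The log2 fold change of -1.38 (SE 0.55, 95% confidence interval from -2.66 to -0.10) was the largest in size among the 10 genes, with a limma adjusted p = 0.318. The interval is not adjusted for the number of genes tested and belongs to the gene with the largest change of the 10. Cd160, a receptor of the immunoglobulin family on chromosome 3 from 96798763 to 96829351, had a TPM of 4.24, 1.39 and 1.9 in WT and of 2.77, 1.18 and 0.98 in Mtg16−/−. Its log2 fold change was -0.39 (SE 0.37, adjusted p = 0.628 in limma), and Mtg16−/− replicate 1 was above WT replicates 2 and 3.

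**Figure D1:**
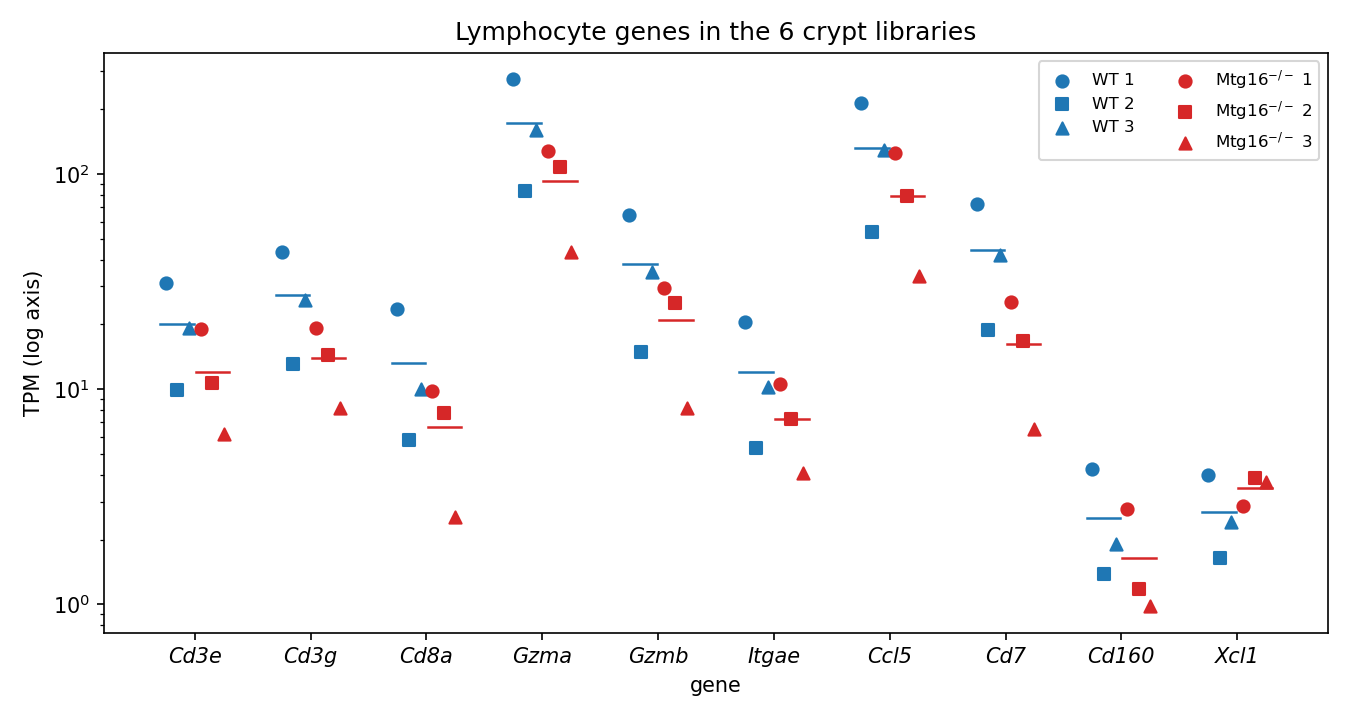
TPM of each lymphocyte gene on a log axis, with 1 point per library (blue WT, red Mtg16−/−, the marker giving the replicate) and short lines at the group means. WT replicate 1 is the highest point for all 10 genes and Mtg16−/− replicate 3 the lowest for 9, and the groups overlap for every gene.

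The genes, apart from Xcl1, varied together from mouse to mouse. WT replicate 1 was the highest library for all 10 genes, as it was for 31.4% of all tested genes, and Mtg16−/− replicate 3 was the lowest for 9, as it was for 31.5%. This was not particular to lymphocyte genes. Of 14 villus enterocyte genes, WT replicate 1 was the highest for 14 and Mtg16−/− replicate 3 the lowest for 11. For 6 of the 10 genes (Cd3e, Cd3g, Cd8a, Gzma, Gzmb and Ccl5) the libraries ran in 1 order, from WT replicate 1 through WT replicate 3, Mtg16−/− replicate 1, Mtg16−/− replicate 2 and WT replicate 2 down to Mtg16−/− replicate 3. Over the 6 libraries, Pearson's r between a gene and the mean of the other 9 lay between 0.906 and 0.991 for 9 genes and was 0.149 for Xcl1, while Spearman's rho was between 0.886 and 1 for the 9 and 0.314 for Xcl1. These values describe genes measured in shared libraries. The TPM of the highest library was 2.43 times that of the lowest for Xcl1 and 11.1 times for Cd7, the ends of the range over the 10 genes. Among the 3 WT mice alone this spread was between 2.43 and 4.31.

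The summed TPM of the 10 genes was 752, 208 and 437 in WT and 372, 274 and 117 in Mtg16−/−, a mean of 466 ± 273 (SD, n = 3) against 254 ± 128 (SD, n = 3) and a ratio of 0.546. The groups overlapped, with WT replicate 2 below Mtg16−/− replicates 1 and 2. The ratio of the sums was 0.788 without WT replicate 1 and 0.693 without Mtg16−/− replicate 3, and it was 0.428 without WT replicate 2 and 0.420 without Mtg16−/− replicate 1. The median log2 fold change of the 10 genes was -0.31, -0.29, -1.25 and -1.11 in these 4 cases. Over the 9 lower genes the log2 fold change ran from -0.94 (Cd7) to -0.06 (Cd160) without WT replicate 1 and from -0.88 (Cd7) to -0.20 (Ccl5) without Mtg16−/− replicate 3. It ran from -1.88 (Cd7) to -0.62 (Cd160) without WT replicate 2 and from -1.78 (Cd7) to -0.67 (Cd160) without Mtg16−/− replicate 1. Xcl1 lay between 0.11 without WT replicate 2 and 0.57 without WT replicate 1, and Itgae between -0.98 and -0.11 without the same mice. A further alternative left out both WT replicate 1 and Mtg16−/− replicate 3, and was added after the values were seen. These libraries were chosen because they were the highest and the lowest. The median was then 0.14, the opposite direction. Cd7 (-0.43) and Cd3g (-0.15) were still lower, and the other genes ran from 0.02 (Gzma) to 0.53 (Xcl1).

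Villus enterocyte genes also had lower means in Mtg16−/−. This held for all 14 genes of that list, which includes brush-border enzymes and apolipoproteins, where 53.6% of all tested genes were lower. Of the 14, 0 were called by limma and 9 had an unadjusted p under 0.05 in limma, a limit passed by 14.6% of all tested genes. Apoa1, a lipid transport protein, was the most abundant of them at a TPM of 9430, 3399 and 3975 in WT and of 3522, 1841 and 1570 in Mtg16−/−, and no gene of the list was at 0 in every library. The list summed to a TPM of 34268, 12255 and 14967 in WT and of 12161, 6677 and 5709 in Mtg16−/−, groups that did not overlap by a narrow margin, with WT replicate 2 just above Mtg16−/− replicate 1. Of the 14 genes, 4 did not overlap, where 11.1% of all tested genes were lower without overlap, and Apoa1 overlapped. The lymphocyte genes came to 2.19, 1.70 and 2.92% of that sum in WT and to 3.06, 4.10 and 2.05% in Mtg16−/−. As a share of this 14-gene sum they were thus higher by a ratio of 1.35 where their TPM was lower, and the groups overlapped. The villus sum itself had a ratio of 0.399, and the share was a measure added after the values were seen. The part of villus tissue in the lymphocyte values was not tested. Epcam, an adhesion protein of all epithelial cells, had a TPM of 1375, 1087 and 1106 in WT and of 1193, 1101 and 1091 in Mtg16−/−, and per Epcam the lymphocyte sum had a ratio of 0.589.

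**Figure D2:**
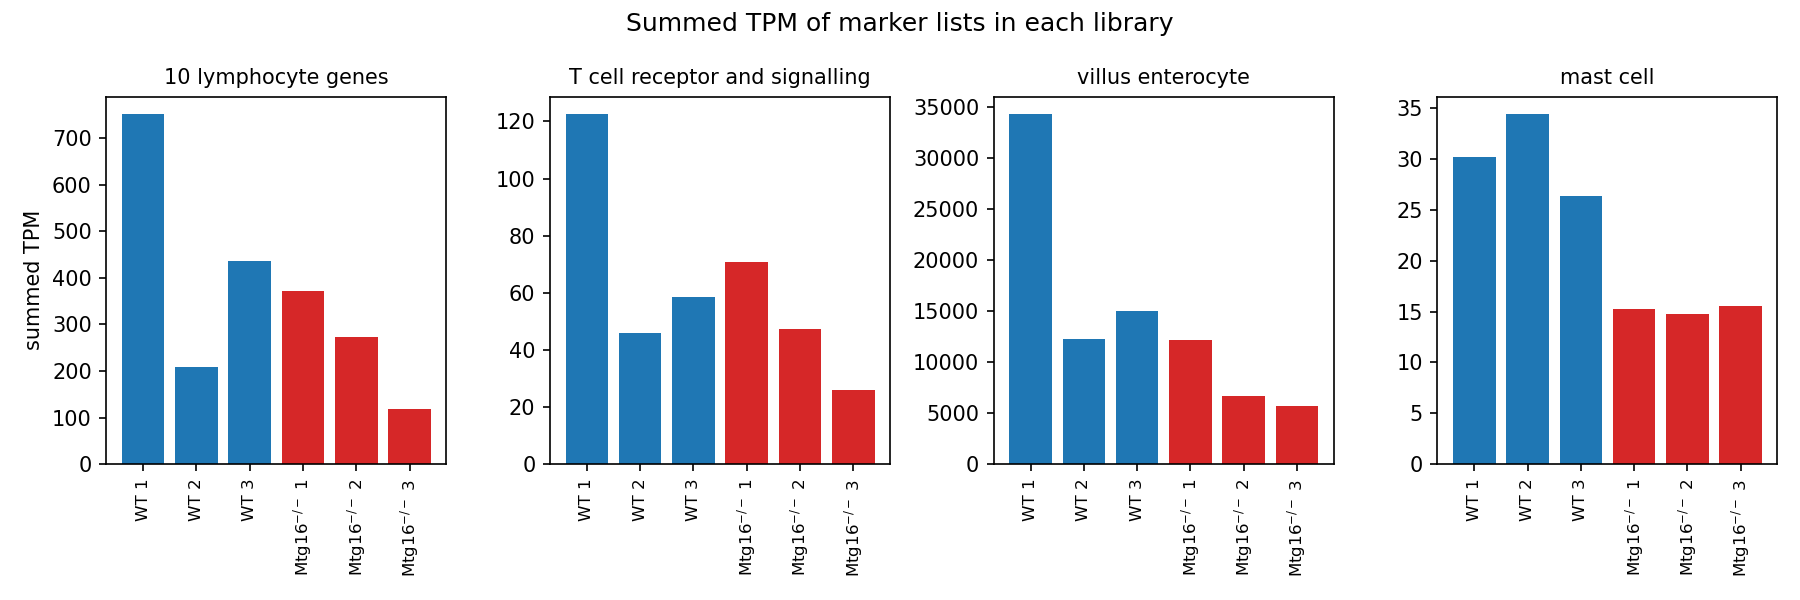
Summed TPM of 4 lists in each library, as bars from 0 (blue WT, red Mtg16−/−). WT replicate 1 has the highest sum of lymphocyte genes (752), of T cell receptor and signalling genes (123) and of villus enterocyte genes (34268). The groups do not overlap for 2 lists. These are the villus list, by a narrow margin (12255 in WT replicate 2, 12161 in Mtg16−/− replicate 1), and the mast cell list. Mast cell sums are 26.3 to 34.4 in WT and 14.8 to 15.6 in Mtg16−/−. In the mast cell list 6 of 9 genes are under a TPM of 1 in every library. Mcpt1 and Mcpt2 do not overlap between the groups, while Kit, the most abundant, does.

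Dividing each gene by the sum of Cd3e and Cd3g in the same library gives its level per CD3 transcript, a measure added after the values were seen. Of the 8 genes other than Cd3e and Cd3g, the groups did not overlap for 3, Cd7, Xcl1 and Itgae. They did not overlap for 3 of 43 other lymphoid genes and for 3.51% of all tested genes. The CD3 sum itself overlapped between the groups, from 14.4 to 74.3, and dividing by it carries that spread into every gene. The share over all genes is thus a weak comparison. Cd7 per CD3 was 0.980, 0.820 and 0.923 in WT and 0.666, 0.668 and 0.457 in Mtg16−/−, so each WT library was above each Mtg16−/− library. The log2 difference was -0.62. The 3 genes were singled out because their groups did not overlap, which by itself sets the exact permutation p at or near 0.1, the smallest that 3 mice against 3 allow (two-sided), so no p is read from them. Cd7 kept its direction with each of 3 other denominators, Ptprc (-0.90), the sum of the tested T cell receptor and signalling genes (-0.78) and Cd3e alone (-0.71). These denominators share genes, since Cd3e is part of the CD3 sum and Ptprc of the T cell list. All come from the same libraries, so the kept direction is no separate support for a gene singled out afterwards.

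Xcl1 per CD3 was 0.0536, 0.0713 and 0.0532 in WT and 0.0747, 0.155 and 0.258 in Mtg16−/−. All libraries labelled Mtg16−/− were above all WT libraries, Mtg16−/− replicate 1 by a small margin, and the log2 difference was 1.29. Undivided, Xcl1 was low, at a TPM of 1.64 to 3.98, and overlapped between the groups (log2 fold change 0.33). The CD3 sum ran from 14.4 to 74.3, so the ratio of Xcl1 also reflects its denominator. With Cd3e alone as the denominator the groups overlapped (log2 difference 1.21). Itgae per CD3 was 0.275, 0.232 and 0.227 in WT and 0.275, 0.291 and 0.283 in Mtg16−/−, with Mtg16−/− replicate 1 barely above WT replicate 1 and a log2 difference of 0.22. The groups overlapped for Itgae with each of the other denominators, the T cell list sum (log2 difference 0.06), Cd3e alone (0.13) and Ptprc (-0.06, the opposite direction). Cd8a, Gzma, Gzmb, Ccl5 and Cd160 overlapped between the groups, and Gzma had 3.70, 3.62 and 3.54 transcripts per CD3 transcript in WT against 3.33, 4.32 and 3.02 in Mtg16−/−. Among 43 other lymphoid genes the ratio did not overlap for 3, all higher (Skap1, Ctsw and Serpinb9).

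**Figure D3:**
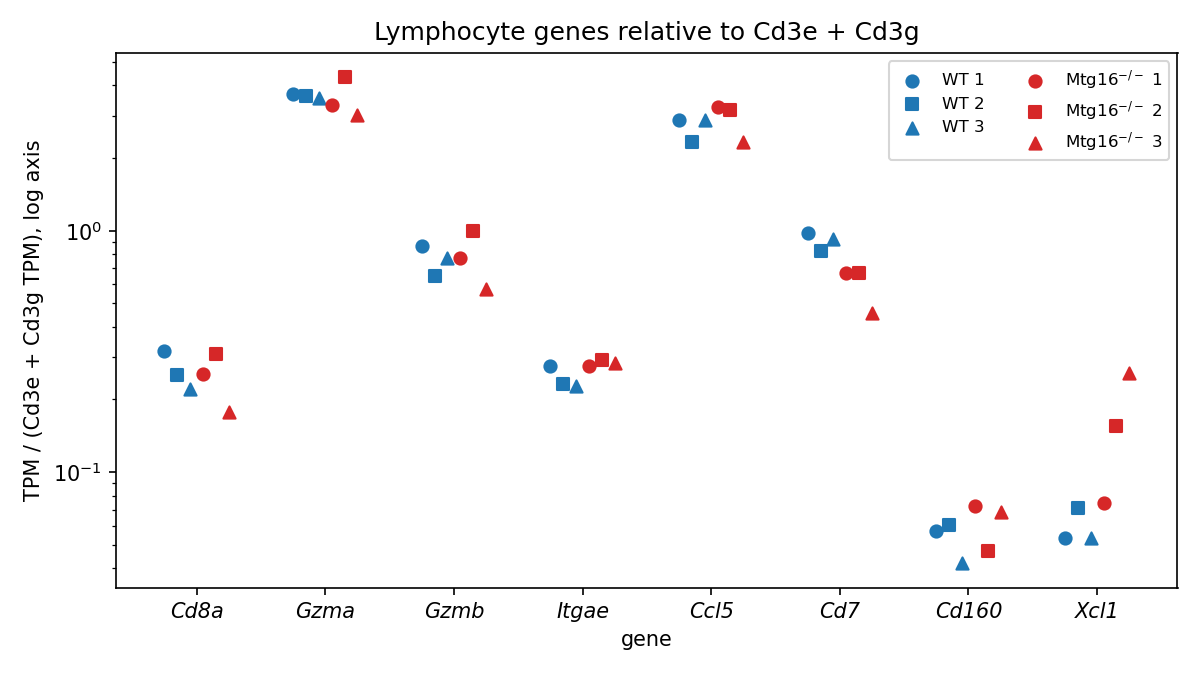
TPM of 8 lymphocyte genes divided by the summed TPM of Cd3e and Cd3g, on a log axis, with 1 point per library (blue WT, red Mtg16−/−). Cd7 lies lower and Xcl1 higher in every Mtg16−/− library, and the groups overlap for Cd8a, Gzma, Gzmb, Ccl5 and Cd160.

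None of the other T cell genes tested was called. Of the T cell receptor and signalling list, 23 of 30 genes were in the table, and 17 of 18 tested genes had a lower mean, with a median log2 fold change of -0.43. The list summed to a TPM of 123, 45.8 and 58.5 in WT and of 70.7, 47.3 and 26.1 in Mtg16−/−, so Mtg16−/− replicate 1 was above WT replicates 2 and 3. Its most abundant genes per length were Ptpn22, Lck, Ptprc and Zap70. Lck, the kinase that starts signalling at CD3, had a TPM of 18.3, 4.24 and 10.04 in WT and of 7.04, 5.62 and 3.19 in Mtg16−/− (log2 fold change -0.77, SE 0.46, adjusted p = 0.446 in limma). Ptprc, the phosphatase CD45 that all leukocytes carry, had a TPM of 17.1, 6.16 and 8.72 in WT and of 8.88, 6.66 and 4.91 in Mtg16−/−. Both overlapped between the groups. The constant region genes of the T cell receptor, such as Trac and Trdc, were not analysed here.

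Of 12 tested cytotoxic and natural killer receptor genes, 11 were lower, with a median log2 fold change of -0.48 and 0 called. Nkg7, a protein of cytotoxic granules, had a TPM of 27.4, 10.8 and 13.3 in WT and of 8.91, 11.2 and 3.81 in Mtg16−/−. Fcer1g and Tyrobp, adaptor proteins that lymphocytes share with myeloid cells, did not overlap between the groups and were lower in Mtg16−/−, and Serpinb9, an inhibitor of granzyme B, did not overlap and was higher. These are 3 of the 12 tested genes, and over all tested genes 21.0% did not overlap. Serpinb9 had a TPM of 1.15, 0.84 and 1.16 in WT and of 2.35, 3.67 and 2.80 in Mtg16−/− (log2 fold change 0.93, SE 0.22, adjusted p = 0.225 in limma). Of 13 tested homing and residency genes, 12 were lower with 0 called, and Gpr55, a lipid receptor and the most abundant of them per length, had a log2 fold change of -0.53 (SE 0.25, adjusted p = 0.376 in limma).

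Among epithelial genes whose products bind those of the lymphocyte genes, none was called. Cdh1, the E-cadherin that binds integrin αE, had a TPM of 441, 410 and 448 in WT and of 423, 433 and 317 in Mtg16−/−. H2-T3, which encodes the thymus leukaemia antigen bound by CD8α homodimers, had a TPM of 186, 103 and 117 in WT and of 110, 87.0 and 65.9 in Mtg16−/− (log2 fold change -0.61, SE 0.26, adjusted p = 0.336 in limma). Tnfrsf14, the receptor bound by CD160, averaged a TPM of 71.2 ± 16.6 in WT and of 88.9 ± 25.5 in Mtg16−/− (mean ± SD, n = 3 each). Sectm1a and Sectm1b, relatives of the CD7 ligand, had log2 fold changes of -0.67 and -0.91, and Sectm1b had a TPM of 277, 98.8 and 111 in WT and of 132, 71.6 and 47.3 in Mtg16−/−. The groups overlapped for these 5 genes. In the whole list of epithelial partners 15 of 19 tested genes were lower, 4 were higher and 0 were called. The groups did not overlap for 4 of the 19, where 21.0% of all tested genes did not: Il18 and Il15ra were lower, and Il7 and Ccl28 higher. Il18, a cytokine that acts on lymphocytes, had a TPM of 119, 43.8 and 50.2 in WT and of 33.1, 19.7 and 29.8 in Mtg16−/− (log2 fold change -1.22, SE 0.37, adjusted p = 0.267 in limma). These 4 were named after their values were seen.

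The part of other immune cells in the lymphocyte values was not tested, and the levels of their markers follow. The B and plasma cell list had a summed TPM of 41.5, 66.7 and 23.9 in WT and of 90.3, 38.0 and 34.3 in Mtg16−/−, with 7 of 9 tested genes lower on the log2 scale. Of these, Cd79a and Ms4a1 had slightly higher mean TPM in Mtg16−/−, with log2 fold changes of -0.01 and -0.04. The most abundant gene, Jchain, which encodes the joining chain of secreted antibodies, had a higher TPM in each Mtg16−/− library than in any WT library, as 9.94% of all tested genes had (log2 fold change 1.23, adjusted p = 0.267 in limma). The macrophage and dendritic cell list summed to 40.2, 55.1 and 43.0 in WT and to 42.1, 45.4 and 46.2 in Mtg16−/−, with 6 of 9 tested genes lower and Itgam the most abundant. Of 10 innate lymphoid genes 2 were tested, both with lower means and both highest in WT replicate 1, Id2 was the most abundant, the list summed to 96.3, 53.3 and 51.4 in WT and to 60.5, 44.8 and 51.2 in Mtg16−/−, and Il22 was at 0 in every library. The stroma and vessel list had 3 of 4 tested genes higher, Vim was the most abundant and Lum was at 0 in every library, with sums of 19.9, 17.0 and 13.3 in WT and of 22.7, 19.6 and 15.6 in Mtg16−/−. The red cell list, 4 globin genes with near-identical copies among them and Alas2, had 3 of 3 tested genes higher on the log2(TPM + 1) scale. Its most abundant gene, Hba-a1, had a mean TPM of 12.6 in both groups and was at 0 in WT replicate 1, and the list had sums of 11.04, 27.3 and 13.8 in WT and of 19.5, 12.2 and 33.2 in Mtg16−/−. In the crypt epithelium list 7 of 9 tested genes were higher, 5 without overlap, where 9.94% of all tested genes were higher without overlap, and 0 were called. Krt8, a keratin, was the most abundant, and the list summed to 6028, 8276 and 6384 in WT and to 9708, 8751 and 8610 in Mtg16−/−.

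Outside these lists, the 5 genes whose profile over the 6 libraries was most like the mean of the lymphocyte genes, among 12143 candidates, were Os9, Gprc5a, Clca4a, Gimap3 and 2010109I03Rik. Pearson's r was 0.997, 0.993, 0.991, 0.990 and 0.989, over 6 libraries and with no p, since the genes were picked for it. Without the 2 libraries farthest from the median, r lay between 0.950 and 0.983. Gimap3 encodes a GTPase of lymphocytes and had a TPM of 19.1, 5.55 and 10.5 in WT and of 10.02, 5.78 and 3.42 in Mtg16−/−. Clca4a, a gene of the chloride channel accessory family, had a TPM of 508, 108 and 191 in WT and of 198, 115 and 49.7 in Mtg16−/−.

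RefSeq promoter sequences (GRCm38.p6, 250 bases before to 50 after the start) were found for 7 of the 10 genes, in 8 windows. RUNX factors direct cytotoxic lymphocyte genes, and the letters TGTGGT or TGCGGT that they bind, searched on both strands, were in 6 of the 8 windows and in 22.4% of all 32851 promoters. The E-box letters CANNTG were in 7 of the 8 and in 72.3% of all, and the ETS letters GGAA in 7 of the 8 and in 96.0% of all. Both windows of Cd160 held RUNX letters, and those of Cd3e and Cd3g held none. No window was found for Itgae, Ccl5 and Cd7. A match describes the letters of a window and is no binding site, and enrichment over all promoters was not tested. The promoters of both granzyme genes, which followed the same order of libraries, and of Xcl1, which did not, are shown, a choice made after the values were seen. Capitals mark the RUNX letters on either strand. They lie on the minus strand at chr13:113100932-113101231 (Gzma), chr14:56262285-56262584 (Gzmb) and chr1:164935473-164935772 (Xcl1), and are written 5′ to 3′ along the gene.
Gzma: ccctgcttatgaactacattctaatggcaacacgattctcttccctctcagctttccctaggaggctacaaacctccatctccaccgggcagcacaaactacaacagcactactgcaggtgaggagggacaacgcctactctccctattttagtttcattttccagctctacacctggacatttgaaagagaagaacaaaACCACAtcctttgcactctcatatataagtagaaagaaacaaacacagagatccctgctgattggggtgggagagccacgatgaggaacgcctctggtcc
Gzmb: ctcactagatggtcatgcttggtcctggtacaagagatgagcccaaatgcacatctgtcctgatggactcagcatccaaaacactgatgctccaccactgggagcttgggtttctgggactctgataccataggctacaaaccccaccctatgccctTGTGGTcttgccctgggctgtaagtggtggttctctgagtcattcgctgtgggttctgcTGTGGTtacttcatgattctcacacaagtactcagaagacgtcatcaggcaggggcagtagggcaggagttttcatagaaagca
Xcl1: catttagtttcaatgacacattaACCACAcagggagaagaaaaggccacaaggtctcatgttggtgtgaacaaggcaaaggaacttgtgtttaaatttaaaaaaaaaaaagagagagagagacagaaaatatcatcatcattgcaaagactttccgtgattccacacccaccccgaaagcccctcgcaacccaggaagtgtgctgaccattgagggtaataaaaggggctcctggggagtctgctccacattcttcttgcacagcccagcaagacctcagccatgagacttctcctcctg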

How the data were processed

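RNA from crypts of 3 WT and 3 Mtg16−/− mice was analysed from the deposited table of TPM, which the authors made with RSEM and rounded to 2 decimals. The submitters' processing notes name cutadapt 1.9.1, STAR 2.5.2a, RSEM 1.3.0, DESeq2 1.12.3 and the build mm10. Counts were not used, so no count test was run, and the depth is unknown. Values were transformed as log2(TPM + 1). Genes whose TPM averaged at least 1 (12268) were tested with limma 3.58.1 in R 4.3.3 (lmFit, eBayes with an intensity trend, no covariate), with Benjamini-Hochberg adjustment, and called at an adjusted p under 0.1. Ratios to CD3 were described by their values and by whether the groups overlapped. The calculation was tested on simulated data. Coordinates and promoters are from RefSeq GRCm38.p6.

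The lymphocyte genes and the other lists were chosen with earlier results of these data known, so no test over a list is given. Named genes are the 10 lymphocyte genes, the most abundant or called genes of each list, epithelial partners of their products and the 5 genes with the most similar profile. Others were named after their values were seen, as were the ratios to CD3. The rule on promoters asked for genes without overlap between the groups, and none met it. Alternatives were the pseudocount, filters, scaling, moderation, threshold, a replicate block and each mouse left out.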

Additional observations from a re-analysis of the deposited data

How the results depend on the processing

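Of the 10 lymphocyte genes, 9 were lower with each of the pseudocount, filter, scaling, moderation, threshold, block and left-out-mouse alternatives that tested all 10, and 8 of 8 at a mean TPM of at least 5. None was called, except Cd7 with the replicate block (1 gene, adjusted p = 0.0727 from limma, against 0.0727 to 0.636 over its alternatives). The number of called genes among all those tested was 4, and was 0 with no filter on low values, 15 at a mean TPM of at least 5, 1 with median-ratio rescaling, 0 with quantile normalization, 0 without the intensity trend, 20 with robust moderation, 1201 with the replicate block and 0 at an adjusted p under 0.05. With each mouse left out it lay between 0 and 40 when genes were filtered again over the remaining libraries, and between 0 and 20 when the genes tested over all 6 were kept, a variant added later. The median log2 fold change of the lymphocyte genes lay between -1.25 and -0.29 with each mouse left out. The values that reversed were added after the data were seen. These are the summed lymphocyte TPM per villus sum (ratio 1.35), the median lymphocyte log2 fold change without WT replicate 1 and Mtg16−/− replicate 3 (0.14), and the log2 difference of Itgae per Ptprc (-0.0609); the cause was not tested. Leaving out the highest and the lowest library picks them by the outcome, so that value is a description. Same-numbered libraries correlated in their deviations from the group means with r = 0.429, 0.0753 and 0.237 across genes. One of these is under 0.1, so the numbers were not taken to pair the mice, although 5 of 6 libraries correlated best with their own number. The depth is unknown, so what low TPM values of Cd160 and Xcl1 can resolve is not known.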

Other observations

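None of the 3 tested genes of the mast cell list was called. Mcpt1, a protease of mucosal mast cells, had a TPM of 13.0, 15.2 and 8.64 in WT and of 0.96, 0.65 and 2.77 in Mtg16−/−. All WT libraries were above all Mtg16−/− libraries, as for 11.1% of all tested genes, and the log2 fold change was -2.49 (SE 0.34, adjusted p = 0.104 in limma), which did not pass the limit of 0.1. Mcpt2 had a TPM of 6.65, 5.99 and 4.02 in WT and of 0.34, 0.92 and 2.75 in Mtg16−/−, also without overlap (log2 fold change -1.60, limma adjusted p = 0.225). Kit, the stem cell factor receptor and the most abundant gene of the mast cell list, had a TPM between 9.69 and 13.3 with groups that overlapped, and Cma1 was at 0 in every library.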
